A study of Mus musculus with 11 samples.

Results

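Potassium channel genes were taken as every row of the count table whose symbol starts with Kcn, followed by at least 1 lower-case letter and a digit, and that reached at least 10 reads summed over the 11 libraries. Of 94 rows with such a symbol 92 met this minimum, and these 92 were among 17557 genes tested of 22609 listed. The remaining Kcnj1 had 5 reads in all and Kcnmb3 had none. The 92 comprised 91 protein-coding genes and the long noncoding RNA Kcnq1ot1, and all of them had a gene model in the GENCODE vM39 annotation of GRCm39.

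Potassium channels set the resting potential, end each action potential and clear potassium from the extracellular space. Pore-forming subunits fall into families with a voltage sensor (Kv, EAG and Kv7), families opened by calcium or sodium ions (BK, SK and Slack), inward rectifiers (Kir) and background channels (K2P), while beta subunits, KChIP and KCNE proteins bind the pore-forming subunits and alter their gating or delivery. In the cerebellum, Kv1 channels are concentrated in the basket cell terminals around the Purkinje cell axon initial segment, Kv7 channels are anchored at initial segments and nodes by ankyrin G, Kv3 channels allow fast firing, and Kir channels of astrocytes buffer potassium.

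The study asked what the loss of Neurofascin 186, of Ankyrin G or of both in Purkinje cells does to the axon initial segment, and polyadenylated RNA was sequenced in bulk from untreated littermate mice of mixed sex. Control mice (3 libraries) were labelled NfascFx/Fx;AnkGFx/Fx. By the study's methods controls lacked Cre and could carry floxed alleles of only 1 of the genes, although Pcp2-Cre stands in the control genotype in its results text. NFKO mice (3 libraries) were Pcp2-Cre;NfascFx/Fx, AnkGKO mice (2 libraries) were Pcp2-Cre;AnkGFx/Fx and DKO mice (3 libraries) were Pcp2-Cre;NfascFx/Fx;AnkGFx/Fx. AnkG is the protein of Ank3. Pcp2-Cre acts mainly in Purkinje cells, while the RNA came from all cells of the tissue. The labels gave the strain as C57BL/6J in 1 field and as a mixed C57BL/6J;129 background in another, and the age as postnatal day 30 in 1 field and 32 in another.

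The libraries held 38890851 to 55822361 reads on genes, and 3 reads, taken as the floor of detection per library, corresponded to 0.0537 to 0.0771 CPM (counts scaled to library size). The targeted gene Ank3 was at 353 to 407 CPM in the control and NFKO libraries and at 156 to 200.1 CPM in the AnkGKO and DKO libraries, without overlap. Nfasc was at 661 to 718 CPM in the control libraries and 622 to 701 CPM in those of NFKO, which overlapped, at 717 and 953 CPM in AnkGKO and at 559, 606 and 603 CPM in DKO, where all 3 libraries were below all control and AnkGKO libraries. Counts per gene do not show the deleted part alone, and Nfasc did not separate NFKO from control, so that it checked no NFKO label. All libraries carried the same batch label, and the tissue was labelled as cerebellar hemisphere. The Purkinje cell marker Pcp2 was at 26.3 CPM in control library 1 and 28.3 CPM in NFKO library 1 but at 0.0929 to 2.14 CPM in the other 9 libraries, and the granule cell marker Gabra6 was at 84.2 and 59 CPM in the same libraries and at 0.0186 to 4.41 CPM in the others. The same pair of libraries was highest in the sum of 7 Purkinje cell markers (1174 and 1277 CPM, against 234 to 368 CPM). The sum of 8 granule cell markers was highest there too (797 and 677 CPM, against 119 to 203 CPM). The defining markers of the labelled tissue were thus low in 9 of the 11 libraries. The sum of 12 caudal Hox genes, which are active at trunk levels of the nervous system and silent in the cerebellum, was 395 to 615 CPM over the 11 libraries. NFKO library 2 stood apart in 4 meningeal fibroblast markers (936 CPM in sum, against 64.8 to 263 CPM in the others), and DKO library 2 in 6 sensory neuron markers listed after the values had been seen (147 CPM, against 0.497 to 1.73 CPM). In bulk RNA, fewer cells of a type and less RNA per cell cannot be told apart, and p-values measure only the spread between the libraries of a genotype.

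The property that makes a protein a potassium channel pore is a short signature of 5 residues in the selectivity filter: threonine or serine, then valine, isoleucine or leucine, then glycine, then tyrosine or phenylalanine, then glycine. The rule that chose the genes did not use it, and it was searched in the coding sequences of GENCODE vM39 transcripts. Of 76 pore-forming members 74 held it, the exceptions being Kcnk1 and Kcnk7, and none of the 15 beta, KChIP or KCNE members did. In 11 of the 14 K2P members it was found 2 times, the family whose subunits carry a pair of pore loops. The coding bases of the signature are shown in capitals, with 15 bases on each side, for the members whose levels the results below turn on: the abundant Kcna1, its Kv1 partner Kcna2, and Kcns1, Kcnj2 and Kcnk12, which had the smallest p-values. Kcnk12 is shown with both of its signatures.
Kcna1: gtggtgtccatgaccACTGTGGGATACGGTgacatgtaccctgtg
Kcna2: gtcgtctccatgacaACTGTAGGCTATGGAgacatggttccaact
Kcns1: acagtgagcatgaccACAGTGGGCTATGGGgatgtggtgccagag
Kcnj2: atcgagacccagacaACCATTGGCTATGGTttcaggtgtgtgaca
Kcnk12 first signature: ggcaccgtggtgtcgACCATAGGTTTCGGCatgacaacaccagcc
Kcnk12 second signature: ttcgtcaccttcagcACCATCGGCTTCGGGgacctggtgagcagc
On GRCm39 these stretches lie in coding exons at chr6:126619176-126619220 (minus strand) for Kcna1, chr3:107012525-107012569 (plus strand) for Kcna2, chr2:164006759-164006803 (minus strand) for Kcns1 and chr11:110963018-110963062 (plus strand) for Kcnj2. The second signature of Kcnk12 lies at chr17:88053866-88053910 (minus strand), and the first is joined across an intron between 88054247 and 88104513 of chromosome 17. Of the 15 signature bases of Kcna1, Kcna2 and Kcns1 shared 11 each, Kcnj2 10 and both signatures of Kcnk12 9 each, position by position.

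Expression was dominated by few members. Over the 11 libraries, 15 members had a mean of 100 CPM or more, 34 were between 10 and 100 CPM, 26 between 1 and 10 CPM, 9 between 0.1 and 1 CPM and 8 under 0.1 CPM. Levels between genes were compared as CPM per kb of exon, and values with ± are the mean and SD over the 3 libraries of a genotype or the 2 of AnkGKO. In control the highest level was that of Kcnj10, the inward rectifier of astrocytes and oligodendrocytes, at 298 ± 10.3 CPM per kb (SD, n = 3). Kcna1, a Kv1 subunit of axons and basket cell terminals, followed at 190.0 ± 24.6 CPM per kb, below Kcnj10 by more than their spread. Kcnab2, a cytoplasmic beta subunit of Kv1 channels, was at 74.9 ± 5.08 CPM per kb, the K2P gene Kcnk1 at 55.4 ± 6.21 and the beta subunit Kcnab3 at 52.4 ± 1.86. Kcnc1 (40.2 ± 3.88), the ERG channel gene Kcnh2 (37.5 ± 0.978), the modifier subunit gene Kcng4 (28.4 ± 5.15) and Kcna6 (27.6 ± 1.78) were among the 10 highest, all in CPM per kb. In this order Kcnk1 and Kcnab3, Kcnc1 and Kcnh2, and Kcng4 and Kcna6 were neighbours that did not differ beyond their spread.

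By family, the 14 Kir genes held 27.7, 28.3, 27.1 and 28% of the summed per-kb level in control, NFKO, AnkGKO and DKO, in that order. The 4 Kv3 genes held 19.7, 19.3, 19 and 18.8%, the 8 Kv1 alpha genes 18.4, 18.7, 18.8 and 19.1% and the 3 Kv1 beta genes 11.1, 10.7, 11.1 and 11.7%. In control the 14 K2P genes held 6.43%, the 8 EAG genes 3.69%, the 10 silent Kv modifier genes 3.12%, the 4 KChIP genes 2.84%, the 3 Kv4 genes 1.9%, the 2 Slack genes 1.44%, the 5 Kv7 genes 1.06%, the 5 KCNE genes 0.999%, the 4 SK and IK genes 0.788%, the 5 BK genes 0.536% and the 2 Kv2 genes 0.222%. The plot of control levels by subfamily shows this order.

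**Figure D1:**
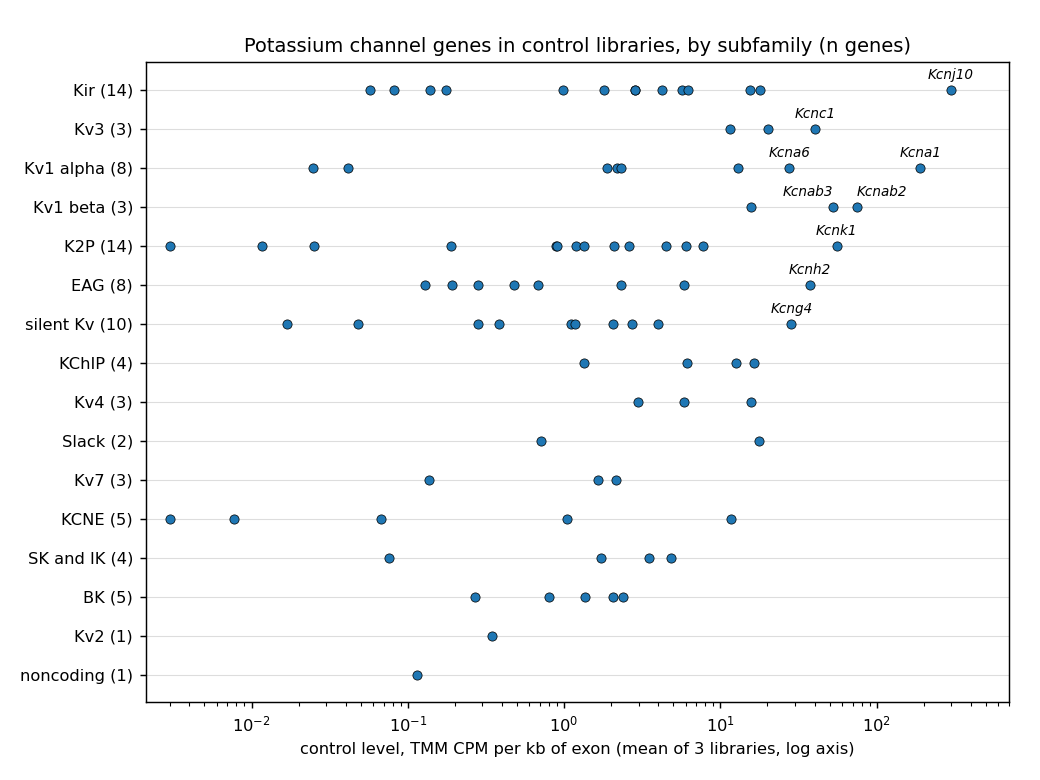
Control level of 88 members (points, mean of 3 control libraries) in CPM per kb of exon on a log axis, with 1 row per subfamily in order of the summed level of all its members and the number of genes drawn in parentheses. Levels under 0.003 CPM per kb are drawn at 0.003, 9 of the 10 highest members are named, and Kcnj10 lies farthest to the right at 298 CPM per kb.

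No potassium channel gene was called as different between genotypes. A gene was called where the quasi-likelihood test of edgeR gave an adjusted p under 0.05 (Benjamini-Hochberg, over all 17557 genes) and the log2 fold change was 0.6 or more in either direction. In NFKO against control 0 of 92 members were called, where 0.365% of all genes tested were. At an unadjusted p under 0.05 stood 1 member that was higher in NFKO and 6 that were lower, against 4.48% and 3.22% of all genes, and DESeq2 called 0 members, against 0.945%. In AnkGKO against control 0 of 92 were called (0.165% of all genes). At an unadjusted p under 0.05 stood 1 that was higher and 2 that were lower, against 3.21% and 2.18% of all genes, and DESeq2 called 0, against 0.582%. In DKO against control 0 of 92 were called (0.0228% of all genes). At an unadjusted p under 0.05, 0 were higher and 10 lower, against 4.04% and 3.74% of all genes, and DESeq2 called 0, against 0.284%. The 10 lower members of DKO included Kcnk12, Kcnq1ot1, Kcnj9, Kcnip3, Kcnd2, Kcnc1, Kcnj6, Kcnj3 and Kcnk10. Genes move together across libraries, so that these counts of members are not counts of independent events.

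Against NFKO, DKO gave 0 of 92 called members in edgeR (0.615% of all genes), 10 at an unadjusted p under 0.05 (16.2% of all genes) and 1 called by DESeq2 (2.53% of all genes), which was Kcns1. Against AnkGKO, DKO gave 0 called members (0.171%), 7 at an unadjusted p under 0.05 (8.48%) and 0 called by DESeq2 (0.6%). The 2 genotypes with targeted Ank3, set against the 2 with intact Ank3, gave 0 called members in edgeR (0.131%), 6 at an unadjusted p under 0.05 (10.2%) and 0 called by DESeq2 (0.725%). The same comparison for Nfasc gave 0 called members in edgeR (0.103%), 4 at an unadjusted p under 0.05 (5.66%) and 0 by DESeq2 (0.337%). The interaction asks whether the effect of targeting Nfasc differs between mice with targeted and with intact Ank3. It gave 0 called members in edgeR (0.53%), 7 at an unadjusted p under 0.05 (10.3%) and 2 called by DESeq2 (1.89%), which were Kcns1 and Kcnj2. DESeq2 adjusted p-values under 0.05, whatever the fold, were held by 1 member in NFKO, 0 in AnkGKO and 1 in DKO against control, 6 in DKO against NFKO, 1 in DKO against AnkGKO, 1 by Ank3, 0 by Nfasc and 4 in the interaction. These comparisons share libraries, and the 3 comparisons against control share the control libraries, so that they are not independent of each other.

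The fold changes of the members were small. The median log2 fold change of the 92 members was -0.0815 in NFKO, -0.029 in AnkGKO and -0.0702 in DKO against control, beside -0.00495, -0.00505 and -0.000624 for all genes tested. Over the 80 members with a mean of at least 0.5 CPM, all of which held reads in every genotype, it was -0.0781, -0.0249 and -0.0846. In NFKO 70 members were lower than control and 22 higher, in AnkGKO 52 and 40, and in DKO 57 and 35, where 48.2%, 48.7% and 49.8% of all genes were higher. Without NFKO library 3 the median of the members in NFKO was -0.0297, and without AnkGKO library 2 that in AnkGKO was -0.10, which leaves AnkGKO with 1 library assumed to vary like the other groups. Of the 80 members at that level, 52 had a 95% interval of the log2 fold change that lay wholly between -0.6 and 0.6 in NFKO, 51 in AnkGKO and 46 in DKO. For the others a log2 fold change of that size lay within the interval, and the intervals extended by a median of 0.34 log2 units to either side in DKO.

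**Figure D2:**
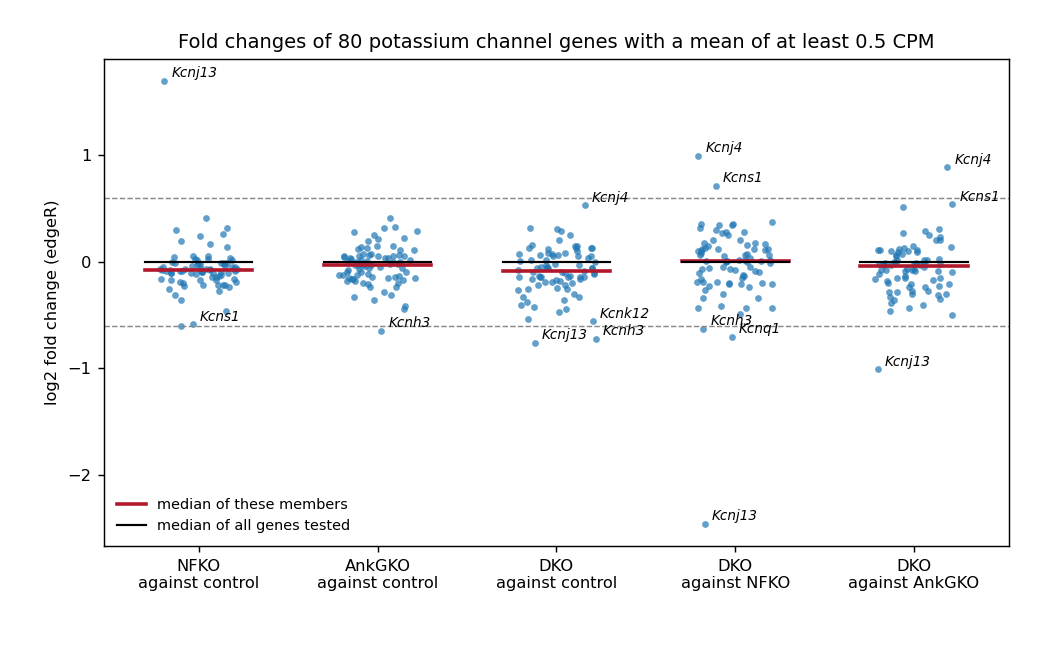
Log2 fold change (vertical axis, edgeR) of the 80 members with a mean of at least 0.5 CPM in 5 comparisons, with 1 point per gene, the median of these members in red, the median of all genes tested in black and dashed lines at -0.6 and 0.6. Most points lie between the dashed lines, and Kcnj13 lies farthest from 0, at 1.70 in NFKO against control and -2.46 in DKO against NFKO.

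Among the Kv1 channels of axons and pinceaux, Kcna1 was at 939.7, 778 and 1006 CPM in control, 951, 786 and 897 in NFKO, 776 and 1013 in AnkGKO and 1111, 799 and 979 in DKO. The groups overlapped, and the log2 fold change in DKO was 0.0851 with a 95% interval from -0.23 to 0.40 (edgeR adjusted p = 0.903). Kcna2, whose protein is the Kv1 subunit stained in pinceaux by the study, was at 172, 152 and 199 CPM in control, 189.6, 158 and 120.5 in NFKO, 148 and 194 in AnkGKO and 193, 113 and 179 in DKO. Its lowest values came from NFKO library 3 and DKO library 2 and its groups overlapped, so that its interval in DKO was wide, from -0.63 to 0.42. The ratio of Kcna1 to Kcna2, in CPM per kb, was 14.7 ± 0.618 in control (SD, n = 3), 16.4 ± 3.99 in NFKO, 14.8 ± 0.0318 in AnkGKO (n = 2) and 17.2 ± 2.37 in DKO. Kcna6, another Kv1 subunit of myelinated axons, was at 164 ± 10.6 CPM in control and 149 ± 22.4 CPM in DKO (log2 fold change -0.14, edgeR adjusted p = 0.713). The less abundant Kcna3, Kcna4 and Kcna5 were between 4.03 and 10.7 CPM on average, and Kcna10 was at 0.055 CPM.

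The beta subunits bind the cytoplasmic face of Kv1 channels. Kcnab3 was at 177, 165 and 174 CPM in control, 145, 144 and 157 in NFKO, 156 and 143 in AnkGKO and 169.6, 152 and 163 in DKO. All NFKO and AnkGKO libraries were below all control libraries, by a log2 fold change of -0.21 in NFKO (SE 0.0653, edgeR adjusted p = 0.358) and -0.20 in AnkGKO (SE 0.0733, edgeR adjusted p = 0.681), while the DKO libraries overlapped with control. Kcnab1, which gives Kv1 channels fast inactivation, was at 207, 169.6 and 208 CPM in control, 189, 153 and 162 in NFKO, 160.1 and 187 in AnkGKO and 234, 192 and 212 in DKO. DKO was higher than NFKO without overlap, by 0.34 on the log2 scale (SE 0.11, edgeR adjusted p = 0.172), and overlapped with control. Kcnab2, the most abundant of the 3, was at 738 ± 50.1 CPM (SD, n = 3) in control and 810.0 ± 35.9 CPM in DKO, with a log2 fold change of 0.13 and an interval from -0.063 to 0.33.

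Of the Kv7 subunits, Kcnq3 is part of the M-type channel that ankyrin G holds at axon initial segments. Kcnq3 was at 20.7, 26.1 and 26.3 CPM in control, 23.2, 24.5 and 17.2 in NFKO, 26.4 and 26 in AnkGKO and 27.8, 14.7 and 22.8 in DKO. The groups overlapped, DKO library 2 was the lowest of all 11, and the interval of the log2 fold change ran from -0.65 to 0.31 in NFKO, -0.42 to 0.64 in AnkGKO and -0.64 to 0.31 in DKO. Kcnq5, a broadly expressed neuronal Kv7 gene, was at 16.6 ± 2.69 CPM (SD, n = 3) in control and 17.2 ± 2.47 CPM in DKO. Kcnq1 was at 0.649 CPM on average.

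**Figure D3:**
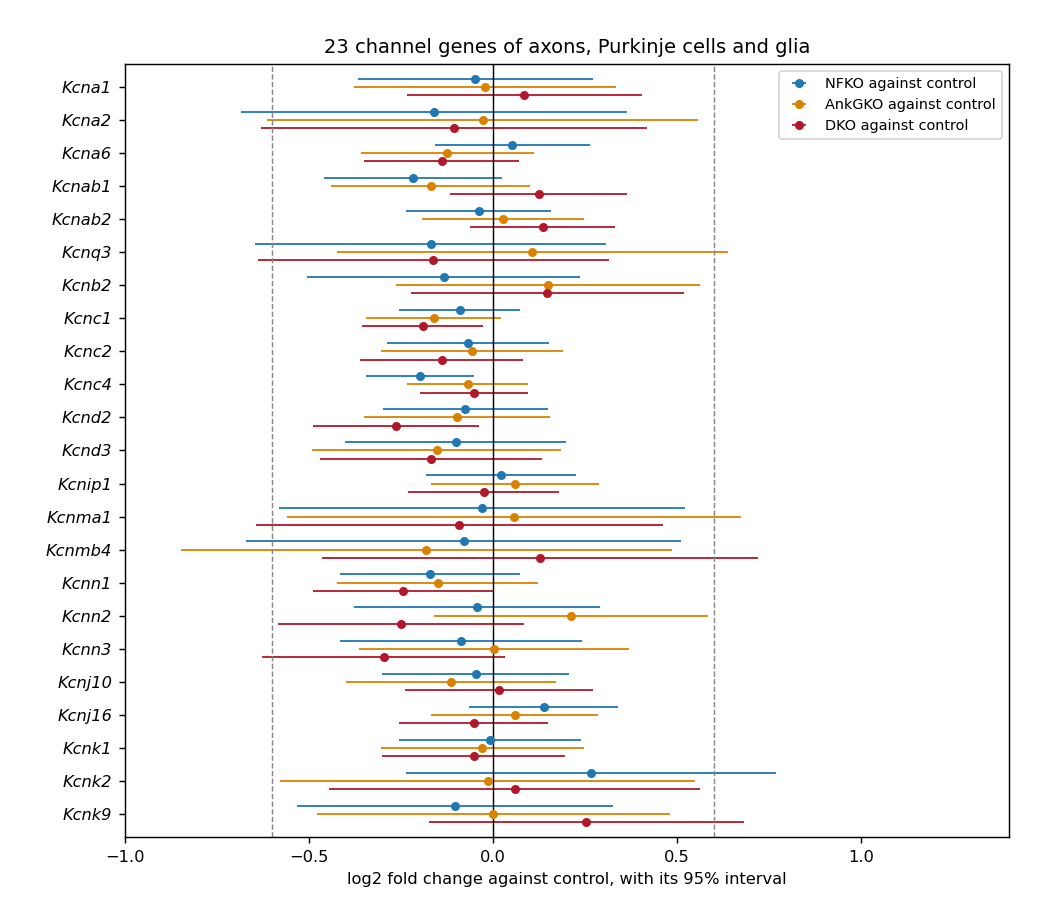
Log2 fold change against control (horizontal axis) with its 95% interval for 23 members with known roles in axons, Purkinje cells and glia, in NFKO (blue), AnkGKO (orange) and DKO (red), with dashed lines at -0.6 and 0.6. All points lie between the dashed lines, and the intervals are widest for Kcna2, Kcnq3, Kcnma1, Kcnmb4 and Kcnk2.

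Kv2 channels and their modifiers carry a delayed rectifier current of neurons. Kcnb2, a Kv2 pore subunit, was at 7.4 ± 0.735 CPM (SD, n = 3) in control and 8.2 ± 1.04 CPM in DKO. Silent Kv subunits form no channel alone but join Kv2 subunits and shift their gating. Nearest to a call among all members was Kcns1, known from sensory and motor neurons, at 8.11, 7.43 and 10.05 CPM in control, 5.49, 7.09 and 4.48 in NFKO, 6.77 and 6.04 in AnkGKO and 8.54, 10.1 and 9.25 in DKO. All 5 libraries of the single knockouts were below all 6 control and DKO libraries. Its log2 fold change was -0.58 in NFKO against control (SE 0.17, edgeR adjusted p = 0.313), -0.41 in AnkGKO against control (SE 0.19, edgeR adjusted p = 0.934) and 0.13 in DKO against control (interval -0.24 to 0.50). DKO against NFKO gave 0.71 (SE 0.17, edgeR adjusted p = 0.0915), and the interaction gave 1.12 (SE 0.26, edgeR adjusted p = 0.111). DESeq2 called both of the last comparisons, and so did edgeR without NFKO library 2, with log2 values of 0.90 and 1.31. The highest DKO value came from library 2, which held the sensory neuron markers, and without it DKO against NFKO gave 0.64 (edgeR adjusted p = 0.107) and the interaction 1.06 (edgeR adjusted p = 0.143). Without control library 1 and NFKO library 1, which stood apart in Purkinje and granule cell markers, the log2 values were 0.69 for DKO against NFKO (edgeR adjusted p = 0.262) and 1.13 for the interaction (edgeR adjusted p = 0.369). Kcng4, the most abundant silent subunit, was at 177, 123 and 164 CPM in control, 178, 119 and 147 in NFKO, 120.2 and 197 in AnkGKO and 161, 148 and 166 in DKO, and the spread within control, NFKO and AnkGKO was larger than any difference between group means. Kcns3 was at 30.2 ± 2.3 CPM in control and 25.6 ± 3.64 CPM in AnkGKO, a log2 fold change of -0.24 (edgeR adjusted p = 0.861) that was -0.0971 without AnkGKO library 1 and -0.39 without AnkGKO library 2. Kcnf1 was at 5.62 ± 1.65 CPM in control and 7.5 ± 1.39 CPM in AnkGKO, and the comparison by Ank3 gave 0.38 on the log2 scale (edgeR adjusted p = 0.487), 0.22 with the granule cell markers as a covariate and 0.24 without control library 1 and NFKO library 1. Kcng1, Kcng2, Kcng3, Kcns2, Kcnv1 and Kcnv2 were between 0.0818 and 9.25 CPM on average and none was called. In NFKO against control all 10 silent Kv genes had negative log2 fold changes, where 70 of all 92 members did. Against control, 6 of the 10 were lower in AnkGKO and 5 in DKO.

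**Figure D4:**
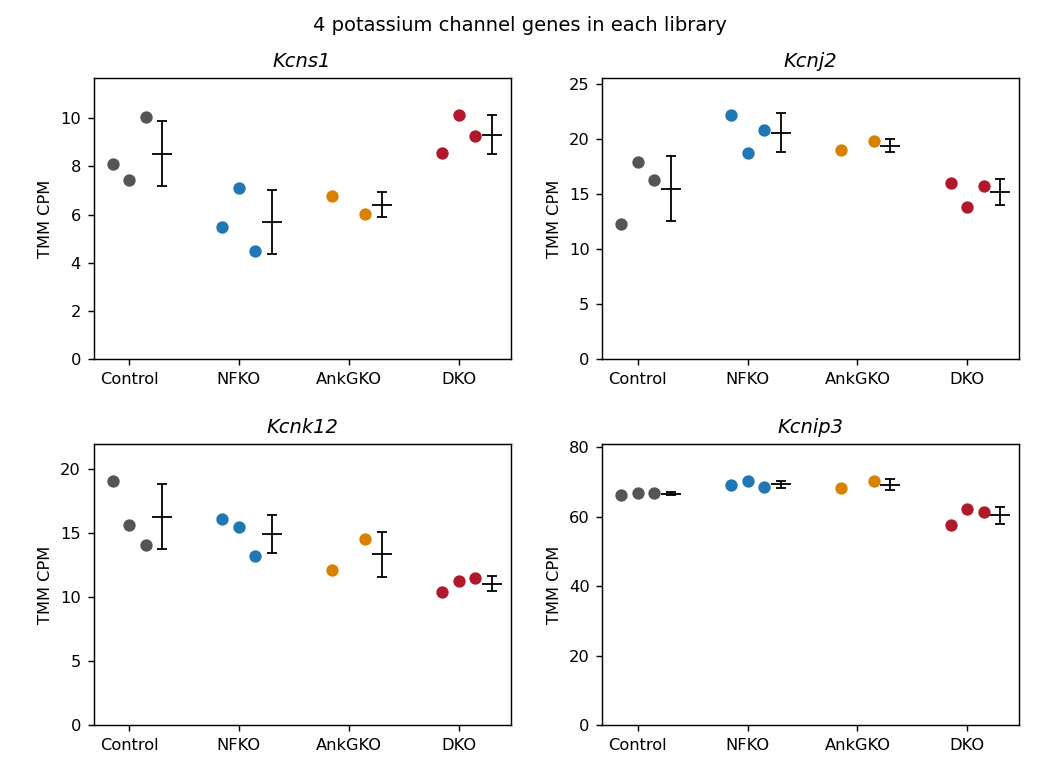
Level of Kcns1, Kcnj2, Kcnk12 and Kcnip3 in CPM (vertical axes from 0) in every library by genotype, with the mean and SD beside the points. Kcns1 is lower and Kcnj2 higher in the 5 single-knockout libraries than in the other 6, and in Kcnk12 and Kcnip3 the 3 DKO libraries are the lowest of the 11.

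Kv3 channels repolarise fast-firing neurons such as Purkinje cells and interneurons. Kcnc1 was at 408 ± 39.4 CPM (SD, n = 3) in control and 358 ± 24.1 CPM in DKO, where all 3 libraries were below all control libraries, with a log2 fold change of -0.19 (SE 0.0751, edgeR adjusted p = 0.619). Control library 1 held its highest value, 454 CPM, and without it the log2 fold change was -0.11. Kcnc4 was at 100.3, 103 and 101 CPM in the control libraries and 88, 91.2 and 85.7 CPM in the NFKO libraries, without overlap (log2 fold change -0.20, SE 0.0672, edgeR adjusted p = 0.436). Kcnc2 was at 98.2 ± 7.17 CPM in control and 89.2 ± 7.82 CPM in DKO. All 4 Kv3 genes had negative log2 fold changes in NFKO, AnkGKO and DKO alike, and none passed the test. The 3 comparisons share the control libraries.

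Kv4 channels carry the transient A-type current of dendrites and bind the calcium sensors of the KChIP family. Kcnd2 was at 92.3, 88.5 and 89.7 CPM in the control libraries and 77.8, 66.3 and 81.2 CPM in the DKO libraries, without overlap, a log2 fold change of -0.26 (SE 0.10, edgeR adjusted p = 0.619). Kcnd3 was at 57.8 ± 3.8 CPM (SD, n = 3) in control and 51.5 ± 5.46 CPM in DKO. Kcnd1 was at 15.8 ± 1.91 CPM in control and 19.5 ± 3.81 CPM in DKO, a log2 fold change of 0.31 (edgeR adjusted p = 0.639), with its highest value of 23.7 CPM in DKO library 2, without which it was 0.15. Kcnip3, a KChIP that is also known as a calcium-dependent transcriptional repressor, was at 66.2, 66.9 and 67 CPM in control, 69.1, 70.4 and 68.4 in NFKO, 68.2 and 70.4 in AnkGKO and 57.7, 62.2 and 61.5 in DKO. The 3 DKO libraries were the lowest of the 11 and the single knockouts the highest. The spread within genotypes was narrow, with an SD of 0.036 on the log2 scale, and the differences were small in size. They were -0.14 on the log2 scale in DKO against control (SE 0.0532, edgeR adjusted p = 0.619), -0.20 against NFKO (SE 0.0531, edgeR adjusted p = 0.124) and -0.20 against AnkGKO (SE 0.0592, edgeR adjusted p = 0.434). With DESeq2 the adjusted p was 0.00145 against NFKO, 0.0167 against AnkGKO and 0.0145 for the interaction, all at log2 values nearer to 0 than 0.6. Kcnip1 was at 59.2 ± 4.14 CPM in control and 58.1 ± 6.09 CPM in DKO, Kcnip4 at 45.7 ± 3.92 CPM and 48.1 ± 2.72 CPM, and Kcnip2, best known from the heart, at 5.34 ± 2.38 CPM and 5.74 ± 1.34 CPM.

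Calcium-activated channels shape the pauses between Purkinje cell spikes. The BK pore subunit Kcnma1 was at 43.6, 34.9 and 43.3 CPM in control, 50.8, 40.5 and 27.9 in NFKO, 38.8 and 45.6 in AnkGKO and 48, 27.6 and 38.7 in DKO, and its groups overlapped. Its neuronal beta subunit Kcnmb4 was at 12.3 ± 3.23 CPM (SD, n = 3) in control and 13.4 ± 1.24 CPM in DKO. Kcnmb1, Kcnmb2 and Kcnu1 were between 1.33 and 4.78 CPM on average. Kcnn2, the SK subunit of Purkinje cells, was at 38.8, 42.9 and 37.2 CPM in control, 34.7, 36 and 44.7 in NFKO, 36.6 and 55.2 in AnkGKO and 34, 36.6 and 29.5 in DKO. DKO against AnkGKO gave a log2 value of -0.46 (SE 0.17, edgeR adjusted p = 0.531) that rested on AnkGKO library 2, since without that library the value was -0.14 (edgeR adjusted p = 0.915). All 4 SK and IK genes had negative log2 fold changes in DKO against control, 3 in NFKO and 1 in AnkGKO. In DKO, Kcnn1 was at -0.24 (edgeR adjusted p = 0.639) and Kcnn3 at -0.30 (edgeR adjusted p = 0.648), and none of the 4 passed the test. The sodium-activated Slack channel Kcnt1 was at 197 ± 11.6 CPM in control, 179 ± 13.9 CPM in NFKO, 176 ± 8.06 CPM in AnkGKO and 179 ± 3.21 CPM in DKO. Kcnt2 was the only member within 20 Mb of a floxed gene, 7.5 Mb from Nfasc on chromosome 1, and was at 6.76 ± 1.37 CPM in control, 6.84 ± 1.64 CPM in NFKO and 6.14 ± 1.18 CPM in DKO. The voltage-gated EAG family was led by Kcnh2, at 200.03, 191 and 192 CPM in control, 169, 167 and 192 in NFKO, 182 and 195 in AnkGKO and 183, 192 and 189 in DKO. All 8 EAG genes had negative log2 fold changes in NFKO, 5 in AnkGKO and 7 in DKO. For Kcnh2 the value in NFKO was -0.15 (SE 0.0653, edgeR adjusted p = 0.636), and control and NFKO overlapped. Kcnh1, Kcnh4, Kcnh5, Kcnh6 and Kcnh7 were between 0.583 and 43.1 CPM on average.

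Among the inward rectifiers, Kcnj10 was at 1606, 1560.1 and 1671 CPM in control, 1641, 1454 and 1585 in NFKO, 1214 and 1763 in AnkGKO and 1597, 1516 and 1777 in DKO. The lowest and nearly the highest value both came from AnkGKO, and the interval in DKO ran from -0.24 to 0.27. Kcnj16, which joins Kcnj10 in glial channels, was at 98.6 ± 10.4 CPM (SD, n = 3) in control and 95.1 ± 4.13 CPM in DKO. The summed level of 5 astrocyte markers was 5418 to 5667 CPM in control, 5012 to 5824 in NFKO, 7457 to 7792 in AnkGKO and 6253 to 6568 in DKO. The markers were thus higher in AnkGKO and DKO without overlap, while Kcnj10, which is not in that list, overlapped between the groups. The strong inward rectifier Kcnj2 was at 12.2, 17.9 and 16.3 CPM in control, 22.2, 18.7 and 20.8 in NFKO, 19 and 19.8 in AnkGKO and 16, 13.8 and 15.7 in DKO. The 5 single-knockout libraries were above the 6 control and DKO libraries, which is the reverse of Kcns1. Its log2 fold change was 0.41 in NFKO (SE 0.13, edgeR adjusted p = 0.386) and 0.32 in AnkGKO (SE 0.14, edgeR adjusted p = 0.902) against control, and the interaction gave -0.76 (SE 0.19, edgeR adjusted p = 0.151). The lowest control value came from library 1, and without it and NFKO library 1 the values were 0.21 in NFKO and -0.56 for the interaction (edgeR adjusted p = 0.429). The G-protein-gated rectifiers Kcnj3, Kcnj6 and Kcnj9 were at 35.1 ± 0.887 CPM, 11.3 ± 0.712 CPM and 41.8 ± 6.62 CPM in control and at 30.1 ± 4.11, 8.77 ± 1.41 and 33.2 ± 1.91 CPM in DKO. Their log2 fold changes in DKO were -0.22, -0.36 and -0.33, with edgeR adjusted p = 0.629, 0.619 and 0.612. The highest Kcnj9 value, 48.4 CPM, came from control library 1, and without it the log2 fold change was -0.22. Kcnj5, the fourth subunit of these channels, was at 0.416, 0.644 and 0.857 CPM in the control libraries and 0.957, 0.537 and 0.637 CPM in those of DKO, which overlapped (log2 fold change 0.15, edgeR adjusted p = 0.957). For Kcnj3 and Kcnj9 22.6% and 21.4% of the exon length lay on a gene of the opposite strand, and whether the counting used strand was not given in the sources used here.

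Kcnj8, the ATP-sensitive channel pore of pericytes and vascular muscle, was at 6.52, 6.8 and 7.07 CPM in control, 4.78, 6.51 and 5.63 in NFKO, 8.85 and 7.71 in AnkGKO and 5.3, 7.01 and 6.13 in DKO. The AnkGKO libraries were the highest of the 11, and DKO against AnkGKO gave -0.43 on the log2 scale (SE 0.16, edgeR adjusted p = 0.532). Its partner subunit Abcc9, which is not a Kcn gene, gave -0.49 in the same comparison (SE 0.14, edgeR adjusted p = 0.379). The sum of 8 vascular markers, a list that holds Abcc9, was 261 to 352 CPM in control, 294 to 454 in NFKO, 322 to 332 in AnkGKO and 236 to 274 in DKO. It was thus higher in AnkGKO than in DKO without overlap but highest in a NFKO library, and its part in the values of Kcnj8 was not tested. The other ATP-sensitive pore, Kcnj11 of neurons, was at 56.5 ± 3.6 CPM (SD, n = 3) in control and 55.8 ± 0.803 CPM in DKO. Kcnj12 and Kcnj15 were at 15.3 and 0.442 CPM on average.

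Of the K2P background channels, Kcnk1 was at 140.1 ± 15.7 CPM (SD, n = 3) in control, 139 ± 17.6 CPM in NFKO, 137 ± 9.52 CPM in AnkGKO and 135 ± 15 CPM in DKO. Kcnk2, a mechanosensitive channel, is among the transcripts that the study gives as reduced in DKO against control. In the counts used here Kcnk2 was at 16.6, 23.3 and 27.2 CPM in control, 21.8, 31.2 and 27.8 in NFKO, 26.8 and 17.6 in AnkGKO and 25.6, 18.8 and 25.6 in DKO. The groups overlapped throughout, and the interval of the log2 fold change in DKO ran from -0.44 to 0.56 (edgeR adjusted p = 0.964). Kcnk12, a channel of the THIK group, had the smallest p-value of any member in DKO against control. It was at 19.1, 15.6 and 14.1 CPM in control, 16.1, 15.4 and 13.2 in NFKO, 12.1 and 14.6 in AnkGKO and 10.4, 11.2 and 11.5 in DKO. The 3 DKO libraries were the lowest of the 11, with a log2 fold change of -0.56 against control (SE 0.13, interval -0.84 to -0.28, edgeR adjusted p = 0.427) and -0.36 by Ank3 genotype (SE 0.0953, edgeR adjusted p = 0.225). With DESeq2 the adjusted p was 0.00785 in DKO against control, 0.0209 in DKO against NFKO and 0.0176 by Ank3 genotype, and Kcnk12 was not called only because its log2 values, of -0.56, -0.43 and -0.36, were nearer to 0 than the threshold of 0.6. The highest value came from control library 1. Without control library 1 and NFKO library 1 the log2 fold change in DKO was -0.43 (edgeR adjusted p = 0.896) and the value by Ank3 genotype was -0.27, and with the granule cell markers as a covariate the latter was -0.23. Its relative Kcnk13, known from microglia and oligodendrocytes, was at 38.2 ± 1.68 CPM in control and 23.7, 38.5 and 39 CPM in DKO, where library 1 alone was low. The acid-sensitive Kcnk3 was at 55.5 ± 10.7 CPM in control and 63.9 ± 2.28 CPM in DKO. Its relative Kcnk9 was at 36.5, 30.6 and 38.9 CPM in the control libraries and at 52.8, 33 and 40.6 CPM in those of DKO, which overlapped. Kcnk5 was at 4.08 ± 0.79 CPM in control and 5.07 ± 0.337 CPM in NFKO (log2 fold change 0.31, edgeR adjusted p = 0.83). Kcnk10, a mechanosensitive relative of Kcnk2, was at 7.76 ± 1.19 CPM in control and 6.17 ± 0.63 CPM in DKO (log2 fold change -0.33, edgeR adjusted p = 0.629). Its highest value, 9.12 CPM, came from control library 1, and without it the log2 fold change was -0.20. Kcnk4, Kcnk6 and Kcnk7 were between 0.334 and 6.08 CPM on average, and Kcnk15 and Kcnk16 were at 0 to 0.116 CPM and 0 to 0.119 CPM, at or under the floor in most libraries.

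The KCNE subunits were mostly low. Kcne1l, named Kcne5 in the annotation, was at 21.4, 17 and 15.8 CPM in control, 15.9, 13.8 and 13.8 in NFKO, 21.6 and 19.9 in AnkGKO and 15.1, 20.1 and 14.9 in DKO, and the comparison by Nfasc genotype gave -0.31 on the log2 scale (SE 0.10, edgeR adjusted p = 0.683). Kcne4 was at 2.66 CPM on average, and Kcne1, Kcne2 and Kcne3 were at 0.0363 to 0.0999 CPM, near the floor. The noncoding member Kcnq1ot1, an imprinted transcript antisense to Kcnq1, was at 11.3, 11.3 and 9.74 CPM in the control libraries and 7.58, 8.45 and 8.34 CPM in the DKO libraries, without overlap (log2 fold change -0.41, SE 0.13, edgeR adjusted p = 0.588). If reads were counted without strand, reads of Kcnq1 and Kcnq1ot1 in their overlap cannot be told apart. A list of 25 genes whose proteins bind or accompany these channels, such as Dlg4, Cntnap2, Lgi3 and the Hcn channels, gave 0 called genes in edgeR in all 8 comparisons. Its median log2 fold change was -0.0752 in NFKO, -0.040 in AnkGKO and -0.0688 in DKO. At an unadjusted p under 0.05 were 2 of the 25 in NFKO, 0 in AnkGKO and 3 in DKO, all lower, where 3.22%, 2.18% and 3.74% of all genes were lower at that p. DESeq2 called 0 of the 25 in each of these comparisons, against 0.945%, 0.582% and 0.284% of all genes, and the shares of all genes called by edgeR were 0.365%, 0.165% and 0.0228%.

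The median spread between libraries of 1 genotype was larger for members than for all genes, which were not matched for level, and this was not tested. The SD of log2 CPM within genotypes had a median of 0.216 over 79 members and of 0.13 over all 14645 genes at the same minimum of 0.5 CPM and with no library at 0. Single members lay on both sides of the median of all genes, from Kcnip3 at 0.036 to Kcnj5 at 0.708. Some of the lowest values came from the same libraries. Hoxc8, a caudal Hox gene, was at 106, 7.99 and 101 CPM in control, 159, 22 and 72.8 in NFKO, 32.2 and 139 in AnkGKO and 98.2, 136 and 105 in DKO, with its lowest value in library 2 of control, library 2 of NFKO and library 1 of AnkGKO. The same libraries had the lowest value of their genotype for Kcna1, Kcng4, Kcnk3 and Kcnj14, members that were chosen for this after their values had been seen, and 16 of the 80 members with a mean of at least 0.5 CPM were lowest in all 3. Singly, 27 of the 80 were lowest in that control library, 20 in that of NFKO and 38 in that of AnkGKO. Every gene is lowest in 1 of 3 libraries in control and NFKO and in 1 of 2 in AnkGKO. The share of all genes that were lowest in these libraries was not counted, so that these counts show no trait particular to the members. Kcnk3 was at 65.9, 44.6 and 56.1 CPM in control, 69.7, 49.8 and 52.3 in NFKO, 49.8 and 69.9 in AnkGKO and 62.1, 66.4 and 63 in DKO. Kcnj14, an inward rectifier of cranial and spinal motor neurons, was at 17.1, 10.6 and 18.7 CPM in control, 19.5, 10.9 and 14 in NFKO, 13.3 and 25.1 in AnkGKO and 17.2, 19.8 and 19.8 in DKO. The sum of 5 motor neuron markers was 289.8, 175 and 316 CPM in control, 376, 193 and 235 in NFKO, 217 and 473 in AnkGKO and 409, 495 and 390.2 in DKO, and its lowest values in control, NFKO and AnkGKO came from the same libraries. Other lists shared this order. The sum of 5 oligodendrocyte markers was also lowest of its genotype in these libraries, at 27428, 24803 and 27028 CPM. The sum of 4 meningeal fibroblast markers was highest of its genotype there, at 205, 936 and 170 CPM. The part of any of these lists in the members' levels was not tested.

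Some low members stood out in 1 library. Kcna7, a Kv1 gene of muscle, was at 1.37 CPM in NFKO library 2, at 0.327 CPM in DKO library 2 and at 0 to 0.181 CPM in the other 9, and the sum of 4 muscle markers was 271 and 106 CPM in those libraries and 0.978 to 41.9 CPM in the others. Kcnk18, the K2P channel of sensory neurons, was at 0.794 CPM in DKO library 2 and at 0 to 0.0434 CPM, under the floor, elsewhere, beside sensory neuron markers of 147 CPM there. The control libraries held no read of Kcnk18, and no fold is given for it. Kcnj13, a channel of choroid plexus and other epithelia, was at 0.182, 1.57 and 0.833 CPM in control, 1.95, 3.95 and 2.64 in NFKO, 1.92 and 0.152 in AnkGKO and 1.24, 0.35 and 0 in DKO and had the largest ratio of the highest to the lowest control library, 8.63, among members at 0.5 CPM or more. The sum of 5 choroid plexus markers was 6.63 to 16.2 CPM with its highest value in control library 1, where Kcnj13 was lowest among controls, and NFKO library 2, highest in Kcnj13, was also highest in the fibroblast markers. The sum was next highest in NFKO library 2, at 15.3 CPM. Without NFKO library 2 the log2 value of Kcnj13 was 1.39 in NFKO against control and -2.15 in DKO against NFKO. The part of either list was not tested. For the ratio between control libraries, Kcnj13 was followed by Kcnh8 at 3.47, Kcnip2 at 2.64, Kcnh3 at 2.24, Kcnj5 at 2.06 and Kcnn4 at 2.0. In each of these genes the lowest control value was that of library 1. Kcnj4, a Kir gene of forebrain neurons, was at 0.572, 0.725 and 0.69 CPM in control, 0.23, 0.597 and 0.613 in NFKO, 0.536 and 0.50 in AnkGKO and 0.793, 1.42 and 0.673 in DKO. Its highest value was again in DKO library 2, and its log2 value for DKO against NFKO was 1.00 (SE 0.39, edgeR adjusted p = 0.239), and 0.60 without that library.

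**Figure D5:**
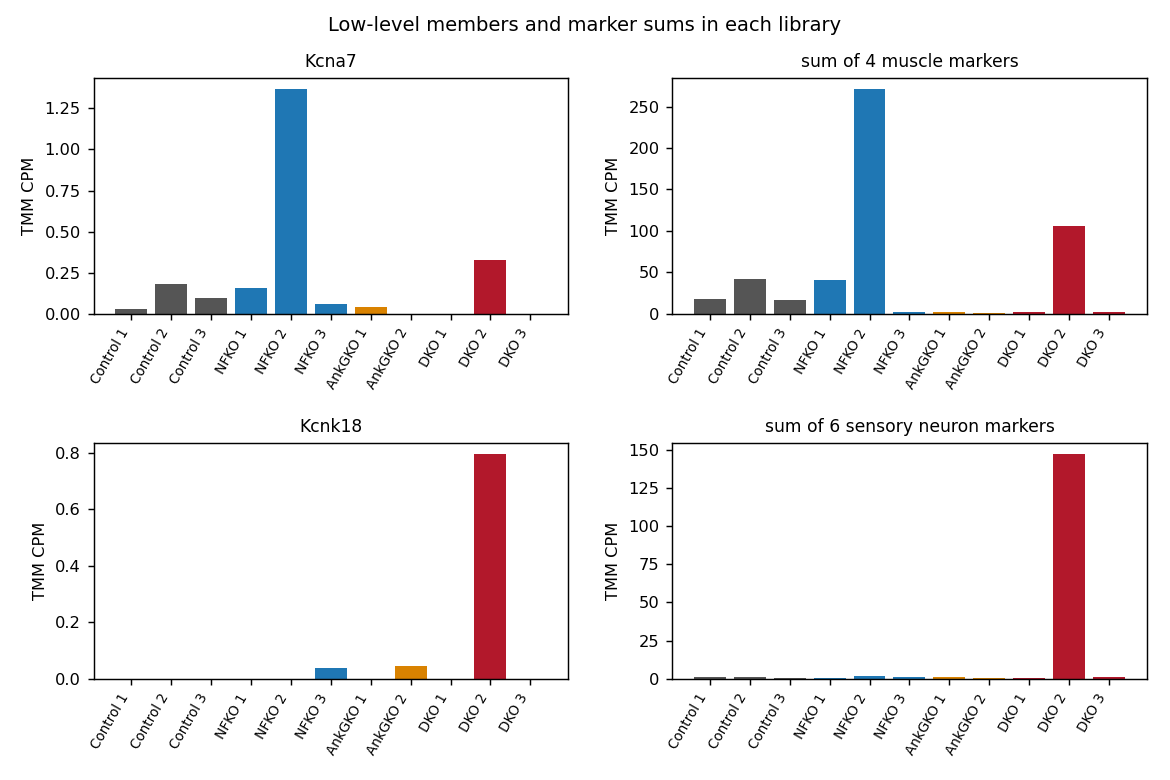
Level of Kcna7 and Kcnk18 (left, CPM) beside the summed level of 4 muscle markers and of 6 sensory neuron markers (right, CPM) in each of the 11 libraries, coloured by genotype. The tallest bar of each upper panel is NFKO library 2 and that of each lower panel is DKO library 2.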

How the data were processed

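Polyadenylated RNA of 11 samples was sequenced with directional libraries, and the labels gave the genotype and replicate of each. The authors deposited whole-number read counts per gene. Per the labels and the study's methods the reads were checked with FastQC 0.12.1, trimmed with Trimmomatic 0.39 and aligned with STAR 2.7.11a to GRCm39. By the methods, reads per gene were counted by STAR while it aligned them, although the table's summary lines carry the names that HTSeq uses, and the strand setting was not given in the sources used here. Read lengths and the number of AnkGKO samples differed between the labels and the study's methods, the labels giving the 2 analysed here, and a normalized table made by the authors was not used. The 5 summary lines of the table were left out of library sizes. The lines for reads without a feature, ambiguous reads and alignments that were not unique held 42.7% to 43.8% of its counts, mostly the last.

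Counts were scaled by trimmed mean of M values (TMM) and genes with at least 10 counts in all were tested with edgeR 4.0.16 in R 4.3.3, by the quasi-likelihood test on a model with 1 mean per genotype, fitted to all 11 libraries, with Benjamini-Hochberg adjustment over 17557 genes. Levels are TMM-scaled CPM. Exon lengths, strands and sequences came from GENCODE vM39. No pair of libraries agreed within sampling noise. Called members had an adjusted p under 0.05 and a log2 fold change of 0.6 or more in either direction. The floor of 3 counts covers counting error only. The test was checked on simulated data.

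The members, the gene lists and the rule for named genes were chosen with earlier results of these data known. The rule named 26 members with known roles, up to 3 higher and 3 lower members with the smallest unadjusted p per comparison among those at 0.5 CPM or more, the 10 with the highest control level per kb, the 6 with the largest ratio between control libraries, and those within 20 Mb of a floxed gene. Other members were named to complete a family or, where stated, after their values were seen. Results of 4 members are not reported here, although they are part of all counts, medians and family sums, and 23 of the 26 are shown. Alternatives were DESeq2 1.42.0, its size factors in edgeR, other filters, other fold thresholds, fits of only the libraries compared, a granule cell marker covariate, a replicate block, leaving out each library, and, added after seeing the data, leaving out control library 1 and NFKO library 1. The labels give replicate numbers but say nothing of a shared litter or day. Deviations from the group means of control and NFKO libraries of the same number correlated at 0.57, 0.47 and 0.26 (Pearson's r across genes, which are not independent replicates), so that these numbers were taken as pairing control and NFKO. For the other pairs of genotypes at least 1 correlation was under 0.1.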

Additional observations from a re-analysis of the deposited data

How the results depend on the processing

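The count of called members stayed at 0 in all 8 comparisons under all alternatives but 2. With DESeq2, 1 member was called in DKO against NFKO (Kcns1) and 2 in the interaction (Kcns1 and Kcnj2), and leaving out single libraries gave 0 to 1 called members in both comparisons, the 1 being Kcns1 without NFKO library 2. The median log2 fold change of the members in DKO against control was -0.0702 and became -0.12 with the granule cell marker covariate. When single libraries were left out, the median ran from -0.12 to -0.0297 in NFKO, from -0.10 to -0.0288 in AnkGKO and from -0.12 to -0.0448 in DKO against control. The cause of these shifts was not tested. Without control library 1 and NFKO library 1, chosen after seeing the data, the medians were -0.0863, -0.0588 and -0.12 in the same order. With the replicate number as a block, the pairing taken for control and NFKO, 0 members were called in NFKO against control and the median was -0.0837, and the block changed no call in any other comparison. Medians near 0 changed sign when single libraries were left out, from -0.0248 to 0.0603 in DKO against NFKO, from -0.0407 to 0.00473 in the comparison by Ank3 and from -0.00276 to 0.0662 in the interaction. With 2 or 3 libraries per genotype, a median interval margin of 0.34 log2 units in DKO limits what could be detected.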
